A study of Mus musculus with 9 samples.

Results

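The genes described here are 10 transcripts of hepatic stellate cells and of the liver's extracellular matrix, taken by gene symbol from a table of 42188 genes: Col1a1, Col1a2, Col3a1, Col4a1, Timp1, Acta2, Des, Lrat, Pdgfrb and Tgfb1. The values come from bulk RNA sequencing of whole mouse liver, 9 libraries in 3 groups of 3. MSA_ConA mice received 250 mg/kg of MSA into the peritoneum and, 6 h later, 20 mg/kg of concanavalin A into a tail vein. The study's title names mesaconate, and MSA was read as that compound. ConA mice received the same dose of concanavalin A, a lectin from jack bean by which T cells are activated and the liver is injured, with no MSA. Control mice received buffered saline by tail vein. Livers of both concanavalin A groups were taken 12 h after concanavalin A. All mice are labelled 8-week-old wild-type males of 20 to 25 g, of strain C57BL/6 in the sample labels and C57BL/6J in the protocol, and the 3 libraries of a group are numbered 1, 2 and 3. Of the 10 genes, 9 passed the filter on low counts that left 14603 genes for testing, and Timp1 did not.

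Stellate cells lie between hepatocytes and sinusoidal endothelium, where they store vitamin A as retinyl esters and carry desmin filaments and the PDGF receptor beta. In injured liver, transforming growth factor beta turns them into myofibroblasts, which form smooth muscle actin, fibrillar collagens and the metalloproteinase inhibitor TIMP-1. Matrix build-up is best known from lasting injury, while inhibitors of matrix breakdown can also be made early.

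The 3 libraries numbered 1 stood apart from the 6 numbered 2 or 3, across all 3 groups. Xist, the transcript of the inactive X chromosome, did not exceed 0.484 CPM in any of the 3 libraries with number 1, and lay between 667 and 1131 CPM in the 6 numbered 2 or 3, which goes against their male label. CPM are counts scaled to library size, here with the TMM factors of edgeR. Nnt, a gene partly deleted in C57BL/6J mice, lay between 29.8 and 34.5 CPM in the libraries numbered 1 and between 168 and 266 CPM in the others, whose levels go against that strain label. Totals ran from 13294600 to 17276391 counts, and 1 count was worth 0.0515 to 0.132 CPM. The hepatocyte transcript Alb measured 64100 to 100174 CPM, and a list of 11 hepatocyte genes summed to 209077 CPM in MSA_ConA 1 and to 114567 to 141063 CPM in the others. Each result below is therefore given with and without the libraries numbered 1, or by number. Nothing in the labels says what the numbers stand for, so p-values measure only the spread between these libraries.

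In the C57BL/6NJ gene models of the deposited table, the collagen genes lie as follows: Col1a1 (MGP_C57BL6NJ_G0019363) on chromosome 11 from 100181204 to 100199590, Col1a2 (MGP_C57BL6NJ_G0030864) on chromosome 6 from 1292781 to 1333259, Col3a1 (MGP_C57BL6NJ_G0016383) on chromosome 1 from 46187689 to 46232092 and Col4a1 (MGP_C57BL6NJ_G0033844) on chromosome 8 from 8745072 to 8867068. The inhibitor, ligand and receptor genes are Timp1 (MGP_C57BL6NJ_G0036105) on chromosome X from 16184043 to 16188612, Tgfb1 (MGP_C57BL6NJ_G0032324) on chromosome 7 from 25010061 to 25029369 and Pdgfrb (MGP_C57BL6NJ_G0024887) on chromosome 18 from 62553967 to 62595042. The cytoskeletal and retinoid genes are Acta2 (MGP_C57BL6NJ_G0025470) on chromosome 19 from 33921975 to 33936222, Des (MGP_C57BL6NJ_G0016576) on chromosome 1 from 78880030 to 78888280 and Lrat (MGP_C57BL6NJ_G0027749) on chromosome 3 from 85831544 to 85845504.

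Per unit of transcript length, mean levels in Control livers ran from 0.304 FPKM for Timp1 to 4.55 FPKM for Col4a1. Mean deposited FPKM was 4.55 ± 0.596 for Col4a1, 4.16 ± 1.17 for Col3a1, 4.15 ± 6.53 for Acta2 and 3.90 ± 0.142 for Lrat (SD, n = 3 each). The Acta2 mean rested on Control 1, at 11.7 FPKM, against 0.346 FPKM in Control 2 and 0.402 FPKM in Control 3. Lower means of 2.57 ± 0.307 for Pdgfrb, 1.93 ± 0.577 for Des, 1.75 ± 0.304 for Tgfb1, 1.65 ± 0.937 for Col1a1 and 1.34 ± 0.324 for Col1a2 followed (SD, n = 3 each). Timp1 was lowest, at 0.304 ± 0.0638 FPKM (SD, n = 3). In this order the ranges of neighbouring genes overlapped, apart from Lrat above Pdgfrb and Col1a2 above Timp1. The order was different in the library ConA 1, where Col4a1 reached 76.2 FPKM and Timp1 came next with 46.5 FPKM. None of the 10 genes had groups whose 3 libraries lay wholly apart, in any of the 3 comparisons. Among the 14603 tested genes, 5.62% lay wholly higher and 6.7% wholly lower in ConA than in Control livers, 2.35% higher and 2.54% lower in MSA_ConA than in ConA livers, and 6.4% higher and 7.37% lower in MSA_ConA than in Control livers.

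**Figure D1:**
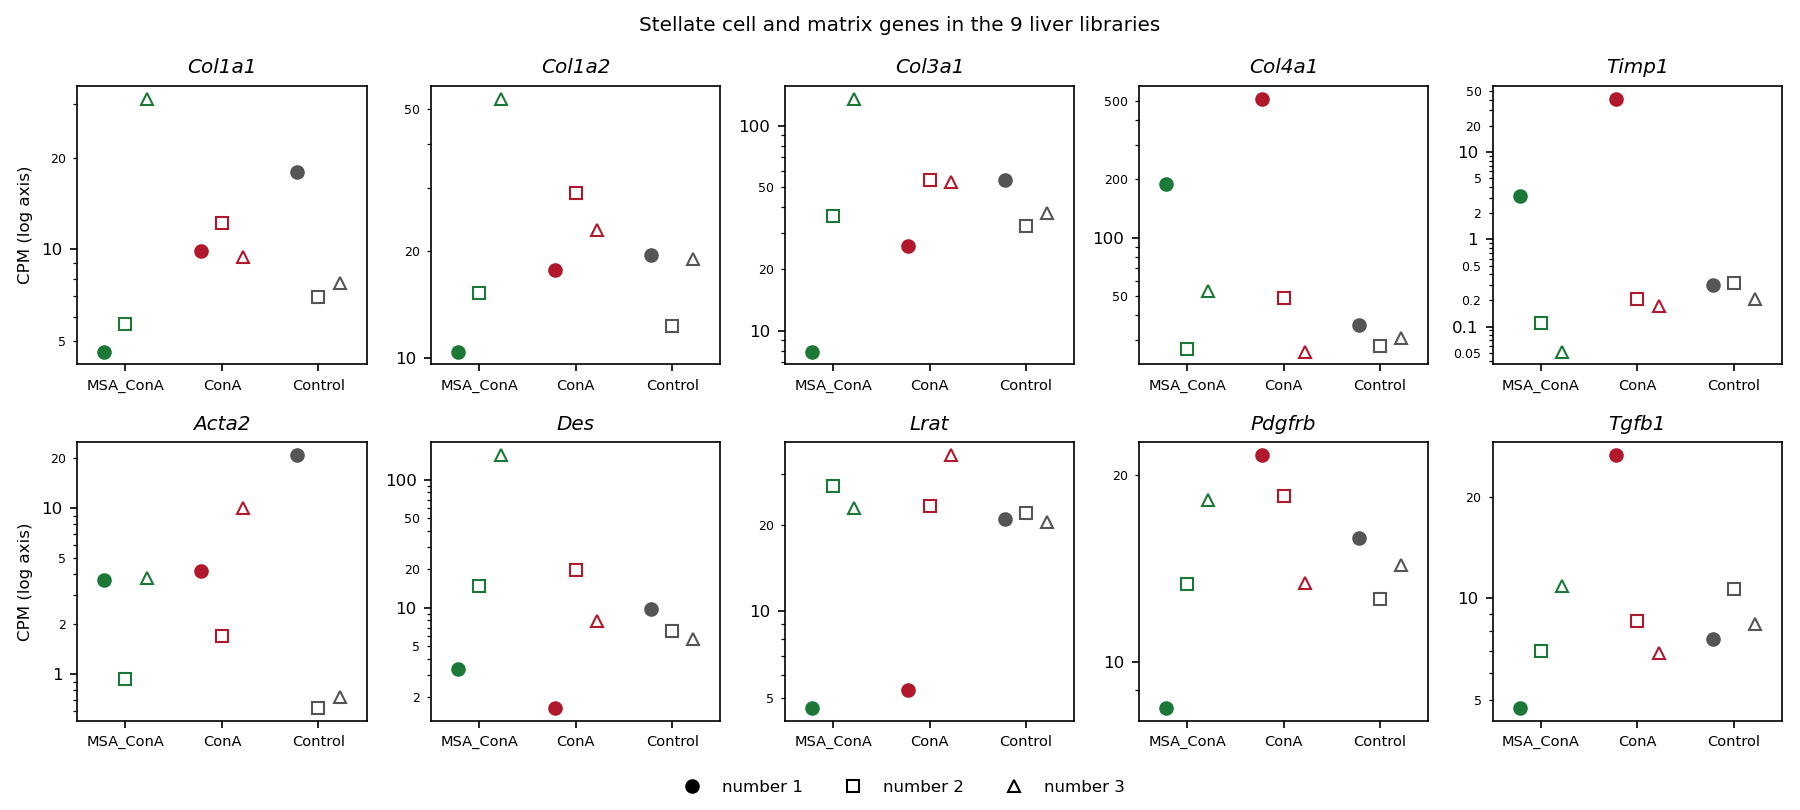
CPM of the 10 genes (log axis) in each of the 3 MSA_ConA, 3 ConA and 3 Control libraries, with the library number as the symbol. Timp1, Col4a1 and Tgfb1 peak in ConA 1, the fibrillar collagens and Des in MSA_ConA 3, and Acta2 in Control 1.

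Timp1 encodes a secreted inhibitor of matrix metalloproteinases. It had 24, 2 and 1 counts in the MSA_ConA libraries numbered 1, 2 and 3, against 424, 4 and 3 counts in the ConA libraries and 4, 6 and 4 counts in the Control libraries. Scaled, these were 3.16, 0.111 and 0.0515 CPM in MSA_ConA livers, 41.0, 0.206 and 0.170 CPM in ConA livers, and 0.298, 0.313 and 0.208 CPM in Control livers. Only ConA 1 and, far below it, MSA_ConA 1 stood above the Control libraries. Among the libraries numbered 1, Timp1 was 138-fold higher in ConA than in Control (exact 95% interval 53.4 to 508, from counting error only). It was 12.98-fold lower in MSA_ConA 1 than in ConA 1 (interval 8.61 to 20.5), which left it 10.6-fold above Control 1 (interval 3.64 to 42.1). The ConA to Control ratio was 0.658 for the libraries numbered 2 (interval 0.137 to 2.77) and 0.819 for those numbered 3 (interval 0.1199 to 4.84), both open to a change either way at 3 to 6 counts. Without the filter on low counts, the ConA minus Control difference over the 9 libraries was 5.52 on the log2 scale, with an adjusted p of 0.918 in edgeR's quasi-likelihood test, a gene high in 1 of 3 libraries.

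Because Timp1 has the widest ratio of the 10 genes, the 250 bases before its start are shown (RefSeq, GRCm38.p6, chrX:20869916-20870165, plus strand). Capitals mark CCAAT and GGGCGG on either strand, the letters of the CCAAT and GC boxes.

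Timp1: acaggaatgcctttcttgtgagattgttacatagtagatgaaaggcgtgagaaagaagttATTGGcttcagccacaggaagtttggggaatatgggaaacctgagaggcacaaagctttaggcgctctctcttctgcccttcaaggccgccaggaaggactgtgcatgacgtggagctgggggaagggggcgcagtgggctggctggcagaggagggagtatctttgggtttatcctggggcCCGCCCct

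Such windows were searched for 8 of the 10 genes. None was available for Col1a1, and Pdgfrb was left out of the search. Over all 32851 windows of this length, 33.8% hold CCAAT and 32.7% hold GGGCGG on either strand, so both are common. No window of the 8 held TGANTCA, the letters of an AP-1 site, or TTCNNNGAA, those of a STAT site, which 6.75% and 7.02% of all windows hold. Positions follow the GRCm38.p6 build, whereas the deposited counts use gene models of the C57BL/6NJ assembly, so the start used in counting may differ.

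Tgfb1 encodes the ligand that drives stellate cell activation. It measured 4.74, 6.97 and 10.9 CPM in the MSA_ConA libraries numbered 1, 2 and 3, against 26.6, 8.55 and 6.87 CPM in the ConA libraries and 7.60, 10.6 and 8.37 CPM in the Control libraries. ConA 1 was highest and MSA_ConA 1 lowest of the 9, while the libraries numbered 2 and 3 lay close together. Between libraries numbered 1 it was 3.50-fold higher in ConA than in Control (interval 2.78 to 4.44) and 5.61-fold lower in MSA_ConA than in ConA (interval 3.96 to 8.18). Over the 9 libraries the ConA minus Control difference was 0.66 ± 0.56 on the log2 scale (SE), and over numbers 2 and 3 it was -0.32 ± 0.27.

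Pdgfrb, the receptor for PDGF on stellate cells and pericytes, varied least of the 10 genes. Its CPM were 8.43, 13.34 and 18.3 in MSA_ConA livers, 21.6, 18.5 and 13.4 in ConA livers, and 15.9, 12.6 and 14.4 in Control livers. The MSA_ConA minus ConA difference was -0.42 ± 0.36 over 9 libraries and 0.0051 ± 0.23 over numbers 2 and 3 (log2, SE).

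Col4a1, a chain of the sheet-forming type IV collagen of basement membranes, peaked in the libraries numbered 1 of both concanavalin A groups. It measured 188, 26.7 and 53.5 CPM in the MSA_ConA libraries numbered 1, 2 and 3, against 516, 48.9 and 26.0 CPM in the ConA libraries and 35.6, 27.9 and 30.7 CPM in the Control libraries. ConA 1 and MSA_ConA 1 stood apart from all others. Of the remaining ones, MSA_ConA 3 and ConA 2 lay above every Control library, and MSA_ConA 2 and ConA 3 below every one. Between libraries numbered 1, Col4a1 was 14.5-fold higher in ConA than in Control (interval 13.2 to 15.96) and 2.74-fold lower in MSA_ConA than in ConA (interval 2.59 to 2.91). The ConA to Control ratio was 1.75 for number 2 (interval 1.58 to 1.95) and 0.846 for number 3 (interval 0.747 to 0.958). The ConA minus Control difference of 2.65 ± 1.13 over 9 libraries (log2, SE) was 0.34 ± 0.37 over numbers 2 and 3, and 0.25 without ConA 1 alone. Its partner chain Col4a2 was also highest in ConA 1 and next in MSA_ConA 1, with 56.4, 18.1 and 38.3 CPM in MSA_ConA livers, 128, 36.2 and 19.6 CPM in ConA livers, and 30.4, 20.7 and 24.5 CPM in Control livers. In RefSeq (GRCm38.p6) both genes start on chromosome 8, on opposite strands and 21 bases apart, with the first bases of the transcripts overlapping. Whether strand was used in counting is not given in the sources used here, so reads of that overlap cannot be told apart.

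The fibrillar collagens Col1a1, Col1a2 and Col3a1, the chains of the tensile fibres of scar tissue, peaked together in MSA_ConA 3 and not in the ConA group. Col3a1 measured 7.90, 36.1 and 135 CPM in the MSA_ConA libraries numbered 1, 2 and 3, against 25.8, 54.5 and 53.4 CPM in the ConA libraries and 54.1, 32.4 and 37.6 CPM in the Control libraries. Col1a1 measured 4.61, 5.70 and 31.3 CPM in MSA_ConA livers, 9.87, 12.2 and 9.43 CPM in ConA livers, and 17.9, 6.99 and 7.75 CPM in Control livers. Col1a2 measured 10.4, 15.2 and 53.5 CPM in MSA_ConA livers, 17.7, 29.1 and 22.9 CPM in ConA livers, and 19.5, 12.3 and 18.9 CPM in Control livers. For each of the 3 genes the MSA_ConA group held both the highest and the lowest of the 9 libraries. Between libraries numbered 3, MSA_ConA was 3.32-fold above ConA for Col1a1 (interval 2.79 to 3.97), 2.33-fold for Col1a2 (2.08 to 2.62) and 2.54-fold for Col3a1 (2.36 to 2.74). Between libraries numbered 1 and numbered 2 all 3 were lower in MSA_ConA than in ConA, at ratios of 0.306 to 0.588 for number 1 and 0.467 to 0.662 for number 2. The MSA_ConA minus ConA differences over 9 libraries, 0.41 ± 0.73, 0.18 ± 0.58 and 0.43 ± 0.81 for Col1a1, Col1a2 and Col3a1 (log2, SE), changed sign without MSA_ConA 3, at -1.02, -0.85 and -1.002.

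As genes that were high in the same library, Col1a2 and Col3a1 are shown with the 250 bases before their starts (RefSeq, GRCm38.p6, plus strand, chr6:4505368-4505617 and chr1:45311288-45311537). Capitals mark CCAAT and GGGCGG in Col1a2 and TATAAA in Col3a1, searched on both strands.

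Col1a2: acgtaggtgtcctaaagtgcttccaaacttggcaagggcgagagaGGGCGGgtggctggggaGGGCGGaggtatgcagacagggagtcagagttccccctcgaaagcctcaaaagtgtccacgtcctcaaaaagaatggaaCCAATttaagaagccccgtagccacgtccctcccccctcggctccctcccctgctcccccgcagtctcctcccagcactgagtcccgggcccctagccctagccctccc

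Col3a1: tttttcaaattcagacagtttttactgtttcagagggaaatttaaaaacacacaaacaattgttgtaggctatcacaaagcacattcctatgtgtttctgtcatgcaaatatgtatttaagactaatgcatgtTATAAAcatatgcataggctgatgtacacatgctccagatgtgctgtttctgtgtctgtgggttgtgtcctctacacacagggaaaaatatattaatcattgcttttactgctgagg

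The 2 windows share no motif searched: that of Col1a2 holds 2 GGGCGG and 1 CCAAT, and that of Col3a1 holds 1 TATAAA, present in 12.4% of all windows, at 117 bases before the start.

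Des encodes desmin, an intermediate filament of stellate cells and of all muscle. It measured 3.29, 14.8 and 157 CPM in the MSA_ConA libraries numbered 1, 2 and 3, against 1.64, 19.9 and 7.89 CPM in the ConA libraries and 9.76, 6.52 and 5.72 CPM in the Control libraries. MSA_ConA 3 stood far above every other library, 19.9-fold over ConA 3 (interval 16.8 to 23.8). Between libraries numbered 1, Des was 5.93-fold lower in ConA than in Control (interval 3.57 to 10.5). The MSA_ConA minus ConA difference of 2.57 ± 1.28 over 9 libraries (log2, SE) was -0.08 without MSA_ConA 3.

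Skeletal muscle transcripts moved with Des. A list of 20 such genes summed to 136, 490 and 6203 CPM in the MSA_ConA libraries numbered 1, 2 and 3, against 8.80, 498 and 99.0 CPM in the ConA libraries and 36.5, 7.72 and 4.68 CPM in the Control libraries. Acta1, skeletal muscle actin, measured 0.263, 107 and 1468 CPM in MSA_ConA livers, 0.290, 99.6 and 20.1 CPM in ConA livers, and 0, 0.365 and 0 CPM in Control livers. The sum in MSA_ConA 1 came mostly from Atp2a1, a calcium pump of fast muscle, at 119 CPM, and 13 of the 20 genes were at 0 there. In MSA_ConA 3, where 19 of the 20 were detected, Des and the fibrillar collagens were also highest, as was Tpm1, a tropomyosin of muscle, at 330 CPM, against 18.7 to 62.2 CPM in the 8 others. A list of 12 portal fibroblast and mesothelial markers summed to 67.1 CPM in that library and 66.7 CPM in ConA 1, against 12.9 to 29.3 CPM elsewhere. The part of these cells in the values of Des and the collagens was not tested. In bulk liver, fewer cells of a type and less RNA per cell cannot be told apart.

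**Figure D2:**
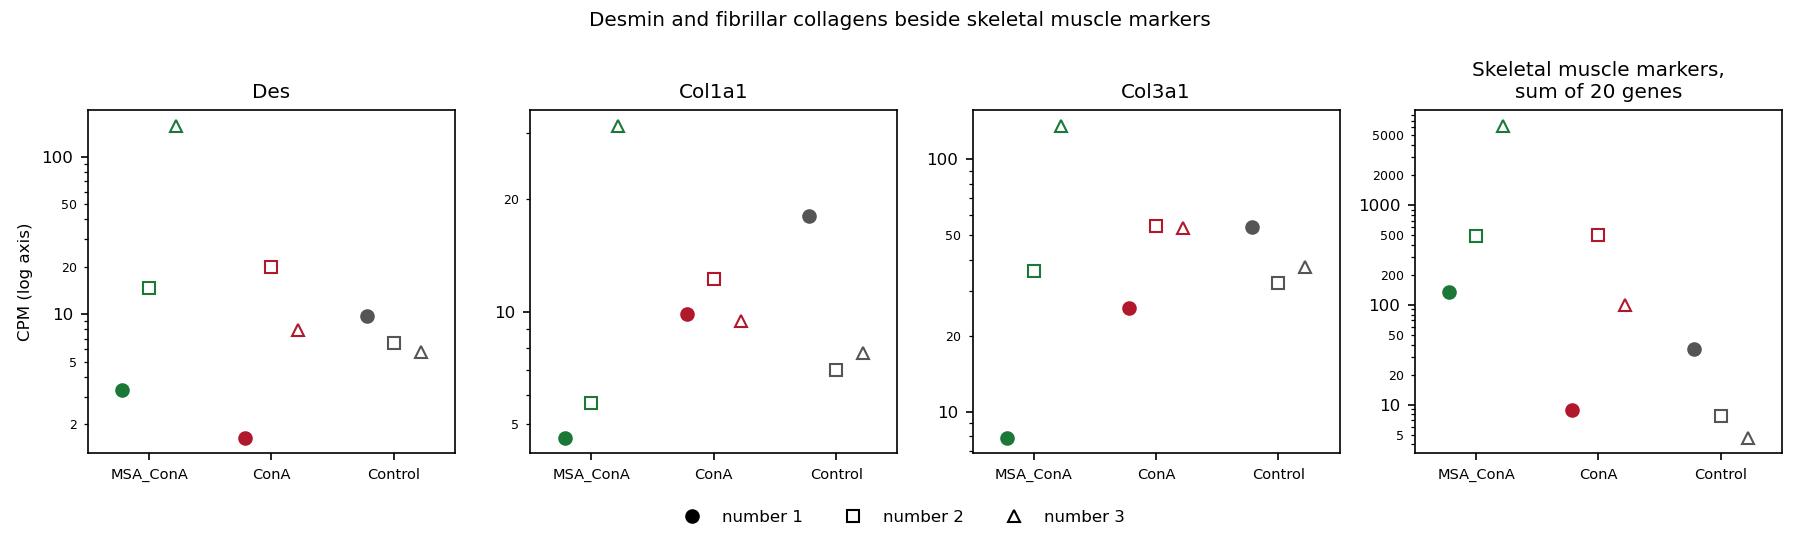
CPM (log axis) of Des, Col1a1 and Col3a1 and the summed CPM of 20 skeletal muscle markers in the MSA_ConA, ConA and Control libraries, with the library number as the symbol. MSA_ConA 3 is highest in all 4 panels, with 157 CPM of Des and 6203 CPM of muscle markers.

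Lrat encodes the enzyme that esterifies retinol for storage, and marks quiescent stellate cells. It measured 4.61, 27.2 and 22.9 CPM in the MSA_ConA libraries numbered 1, 2 and 3, against 5.32, 23.2 and 35.0 CPM in the ConA libraries and 20.9, 22.02 and 20.5 CPM in the Control libraries. The Control libraries agreed closely, and the low values were those of MSA_ConA 1 and ConA 1. Between libraries numbered 1 it was 3.93-fold lower in ConA than in Control (interval 2.94 to 5.35), while the ConA to Control ratio was 1.05 for number 2 (interval 0.919 to 1.20) and 1.71 for number 3 (interval 1.504 to 1.95). MSA_ConA 1 did not differ from ConA 1 beyond counting error (ratio 0.866, interval 0.550 to 1.35).

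Acta2 encodes smooth muscle actin, found in arteries and in stellate cells that have become myofibroblasts. It measured 3.69, 0.941 and 3.81 CPM in the MSA_ConA libraries numbered 1, 2 and 3, against 4.16, 1.70 and 10.05 CPM in the ConA libraries and 20.9, 0.626 and 0.728 CPM in the Control libraries. The highest value was in the saline library Control 1 and the next in ConA 3. Further genes of the smooth muscle list are named here after their values were seen. Myh11, smooth muscle myosin, was high in those libraries too, with 16.9 CPM in Control 1 and 13.1 CPM in ConA 3, against 0.443 to 3.29 CPM elsewhere. Cnn1, Lmod1 and Actg2 were also highest in those libraries, at no more than 4.32 CPM. Myl9 and Mylk were highest in Control 1 too, at 10.1 and 149 CPM, but ConA 3 was not next, at 3.18 and 117 CPM. The rest of the list peaked in other libraries: Tagln was highest in ConA 1 (33.1 CPM, against 19.2 CPM in Control 1 and 8.35 CPM in ConA 3). Cald1 was lower in Control 1 (117 CPM) than in Control 2 and Control 3 (185 and 242 CPM). The ConA minus Control difference was -0.48 ± 1.29 over 9 libraries and 3.09 ± 0.95 over numbers 2 and 3 (log2, SE), and it was 2.95 without Control 1. The adjusted p of the difference over numbers 2 and 3 was 0.414 in edgeR's quasi-likelihood test.

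No group comparison called any of the genes. By edgeR's quasi-likelihood test with Benjamini-Hochberg adjustment over 14603 genes and a threshold of 0.05, 0 of the 9 tested genes changed in ConA against Control, in MSA_ConA against ConA or in MSA_ConA against Control. The share of all genes called was 0% in each of the 3. At an unadjusted p under 0.05 there were 563, 248 and 730 genes in the same order, among them Col4a1 for ConA against Control and Des for MSA_ConA against Control, where Des stood at 3.00 ± 1.31 (log2, SE). DESeq2 called 6, 0 and 55 genes, none of the 9. With numbers 2 and 3 alone, 0 of the 9 and 0% of 14851 genes were called in each comparison, with 1725, 767 and 3578 genes at an unadjusted p under 0.05. Des had the smallest adjusted p of the 9 there, 0.0966 by edgeR for MSA_ConA against Control, at 3.82 ± 1.00 (log2, SE). The fibrillar collagens lay 1.15 to 1.34 above Control in that comparison (log2), with adjusted p of 0.178 to 0.250 by edgeR.

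**Figure D3:**
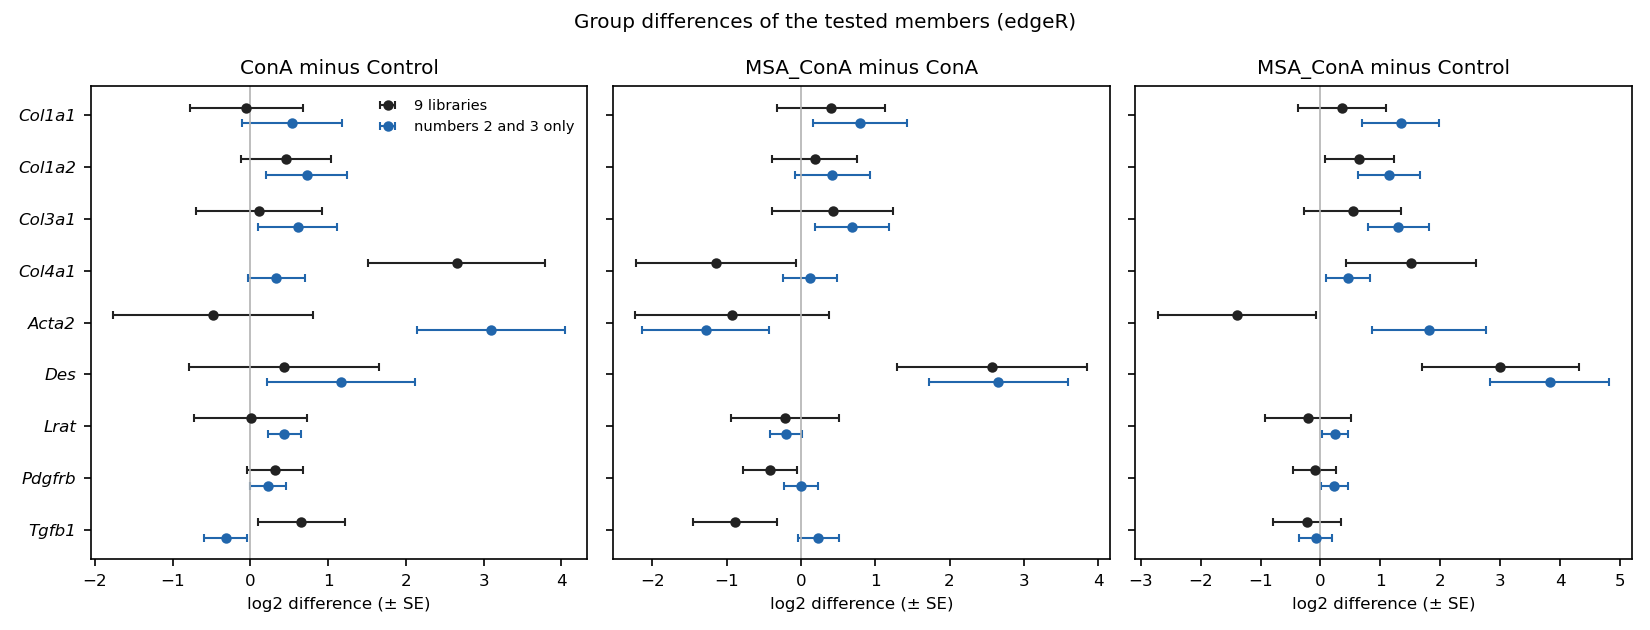
Log2 difference and its standard error for the 9 tested genes in ConA minus Control, MSA_ConA minus ConA and MSA_ConA minus Control, from all 9 libraries and from the libraries numbered 2 and 3 alone. Col4a1 in ConA minus Control is 2.65 with all libraries and 0.34 without those numbered 1, and Acta2 changes sign.

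More genes differed by number than by group. Between the libraries numbered 1 and those numbered 2 and 3, with the group in the model, edgeR called 38.3% of 14603 genes, and 2 of the 9. Col4a1 was higher in number 1 by 2.34 ± 0.58 (log2, SE), with an adjusted p of 0.0151 by edgeR. Lrat was lower, at -1.47 ± 0.50, with an adjusted p of 0.0450 by edgeR. Neither describes all libraries of its class, since Control 1 measured 35.6 CPM of Col4a1 and 20.9 CPM of Lrat, close to the other Control libraries. Timp1 was called as well where the filter on low counts was dropped, at 5.18 (log2), with an adjusted p of 0.00149 by edgeR.

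Whether the ConA effect differed between the libraries numbered 1 and the others was tested in 1 model with a mean for each group and number class, in which each number 1 group is a single library. The 3 residual degrees of freedom come only from the libraries numbered 2 and 3, and each lone library is assumed to vary as they do, so the p-values have no replicate check within number 1. The ConA minus Control difference was called as unequal for 31.1% of all genes and for 4 of the 9, by edgeR. It was greater in number 1 for Col4a1, by 3.51 ± 0.67 (adjusted p 0.00866), and for Tgfb1, by 2.11 ± 0.48 (adjusted p 0.0158). It was smaller in number 1 for Lrat, by -2.42 ± 0.41 (adjusted p 0.00555), and for Acta2, by -5.42 ± 1.56 (adjusted p 0.0354), all on the log2 scale with SE and by edgeR's quasi-likelihood test. Scaling by library totals in place of TMM lowered the median of all genes by 0.54 in this comparison, and the Tgfb1 call was then lost (adjusted p 0.0536 by edgeR, and 0.00356 to 0.0536 over its 3 alternatives). Under limma-voom the Acta2 call was lost (adjusted p 0.0727, and 0.00126 to 0.0727 over its 3 alternatives). The MSA_ConA minus ConA difference was called as unequal for 18.7% of all genes and for 1 of the 9: Tgfb1 was lower in number 1 by -2.70 ± 0.50 (log2, SE), with an adjusted p of 0.0129 by edgeR. For the ConA effect, 4 of 9 stands beside 31.1%, and for the MSA_ConA minus ConA effect 1 of 9 beside 18.7%, so neither count is a result about these genes in particular.

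Taken as single libraries with no replicate check, ConA 1 was at least 2-fold above Control 1, on the scale of CPM plus 1, for 2 of the 9 genes and at least 2-fold below it for 4. Over all 14603 genes these shares were 18.3% and 17.7%. ConA 2 was at least 2-fold above Control 2 for 2 of the 9, Des and Col1a2, and below it for 0, where the shares of all genes were 2.27% and 0.541%. ConA 3 was at least 2-fold above Control 3 for 1, Acta2, and below it for 0, where the shares were 0.452% and 0.445%. MSA_ConA 1 was at least 2-fold above ConA 1 for none of the 9 and below it for 4, where the shares of all genes were 11.5% and 15.2%. MSA_ConA 2 was at least 2-fold above ConA 2 for 0 of the 9 and below it for 0, where the shares were 0.377% and 1.49%. MSA_ConA 3 was at least 2-fold above ConA 3 for 5 of the 9 and below it for 1, Acta2, where the shares of all genes were 4.04% and 0.336%.

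**Figure D4:**
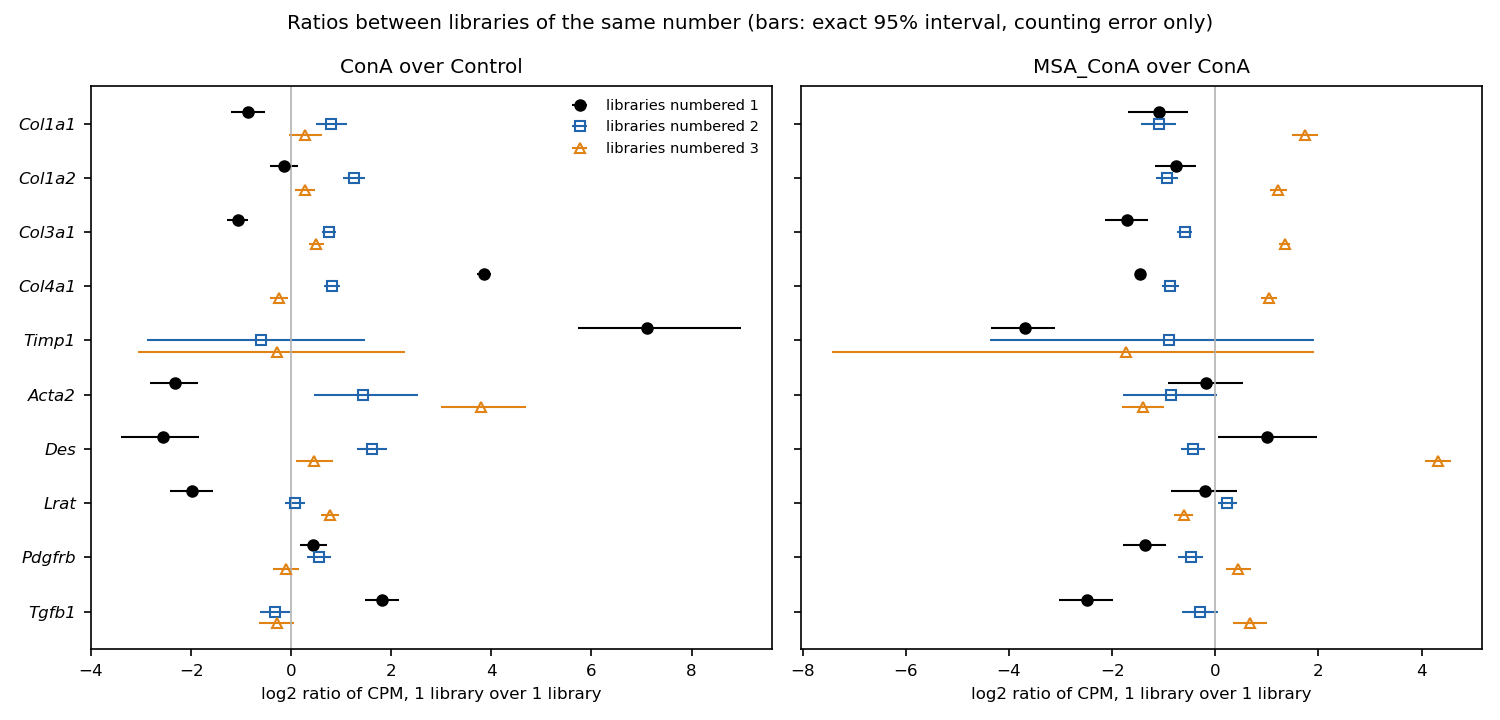
Log2 ratio of CPM between single libraries of the same number, ConA over Control on the left and MSA_ConA over ConA on the right, with exact 95% intervals from counting error. For ConA over Control, Timp1, Col4a1 and Tgfb1 lie right of 0 and Acta2, Des and Lrat left of 0 in number 1, while Timp1 and Tgfb1 are near or below 0 in numbers 2 and 3.

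Genes of the same pathways showed no called group difference either: on 20 lists of matrix, growth factor, stellate cell and other cell type genes, 0 tested genes changed in any of the 3 comparisons by edgeR, as 0% did of all genes. For the unequal ConA effect, 15.7% of all genes were called as greater in number 1 and 15.4% as smaller, with the same single libraries behind each call, and the counts of the lists are to be read against these shares. Of the lists, 6 of 28 tested TGF-beta pathway genes were called as greater in number 1 and 0 as smaller, with a list median of 0.58 against -0.09 over all genes (log2). Among matricellular proteins 7 of 21 were called as greater and 1 as smaller (median 0.99), among metalloproteinases 5 and 3 of 12 (median -0.17), and among basement membrane genes 3 and 2 of 20 (median -0.22). Adamts1, a secreted protease of proteoglycans, measured 34.9, 9.02 and 15.6 CPM in MSA_ConA livers, 238, 8.85 and 4.94 CPM in ConA livers, and 8.86, 7.31 and 6.08 CPM in Control livers. Collagen processing genes were called as greater for 4 and smaller for 0 of 20 (median 0.12). Tgm2, a transglutaminase that cross-links matrix proteins, led them with 1225, 63.3 and 82.5 CPM in MSA_ConA livers, 5218, 77.5 and 70.3 CPM in ConA livers, and 135, 71.1 and 113 CPM in Control livers.

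Of 6 fibrillar collagens 0 were called as greater in number 1 and 1 as smaller (median -1.68), of 9 other interstitial collagens 1 and 1 (median -0.01), and of 13 smooth muscle genes 0 and 2 (median -1.93). The fibrillar collagen called was Col5a3, with 244 CPM in Control 1 against 10.4 to 28.0 CPM in the 8 other libraries. Stellate cell markers split, with 3 of 22 called as greater and 2 as smaller (median 0.02), and retinoid genes with 1 and 3 of 12 (median -0.69). Steap4, an iron reductase on the stellate cell list, measured 4454, 121 and 111 CPM in MSA_ConA livers, 4502, 94.3 and 95.3 CPM in ConA livers, and 61.3, 71.1 and 88.7 CPM in Control livers. Cxcl12, a chemokine on the same list, was low in every library numbered 1, at 70.8 CPM in MSA_ConA 1, 125 CPM in ConA 1 and 185 CPM in Control 1, against 557 to 714 CPM elsewhere. PDGF genes were called for 0 of 6 either way (median 0.06), matrix receptors for 0 as greater and 1 as smaller of 8 (median 0.35), and metalloproteinase inhibitors for 0 of 3 (median 0.12).

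Markers of other cells moved with the ConA 1 values. A list of 9 monocyte and neutrophil genes summed to 212, 6.64 and 9.16 CPM in MSA_ConA livers, 1681, 11.1 and 8.01 CPM in ConA livers, and 14.9, 13.8 and 7.44 CPM in Control livers, with Cd14 at 1275 CPM and S100a9 at 261 CPM in ConA 1. Other genes of this list are named after their values were seen. Ccr2 was lowest in ConA 1, at 0.871 CPM against 1.11 to 3.65 CPM elsewhere. The other tested genes of the list, Cd14, S100a9, S100a8 and Csf3r, were highest in ConA 1. Itgam and Fcnb were at 0 counts in ConA 1, but Fcnb was at 0 in every library and Itgam in all but MSA_ConA 3. Cholangiocyte genes summed to 815 CPM in ConA 1 and 157 CPM in MSA_ConA 1, against 75.8 to 101 CPM elsewhere, of which Sox9 made up 634 CPM in ConA 1. The part of these cells in the values of Timp1, Col4a1 and Tgfb1 was not tested.

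For 3 of the genes, those most alike across the 9 libraries were found by the root mean square difference of centred log2 CPM, where 0 would be the same pattern. Timp1 itself varied by 2.65 on this measure, and its nearest genes were Csrnp1 at 0.571, Gdf15 at 0.618, Junb at 0.628, Sox9 at 0.647 and Myc at 0.672. Timp1 had few counts outside ConA 1 and MSA_ConA 1, so this order rests mainly on those libraries. Junb, a subunit of the AP-1 transcription factor, measured 773, 17.32 and 10.5 CPM in MSA_ConA livers, 2224, 22.8 and 24.5 CPM in ConA livers, and 20.4, 23.5 and 24.0 CPM in Control livers. Col1a1 varied by 0.80, with Fam131a at 0.289, Col6a2 at 0.355, Ace at 0.356, Nxn at 0.381 and Col1a2 at 0.381 nearest to it. Fam131a had only 1 to 33 counts in a library, and Ace 5 to 26 in each library other than MSA_ConA 3. Des varied by 1.74, with Fhl1 at 0.420, Nexn at 0.480, Mef2c at 0.528, Epdr1 at 0.566 and Plxdc2 at 0.618 nearest to it. Epdr1 had only 1 to 31 counts, and Plxdc2 2 to 26, in each library other than MSA_ConA 3. Nexn had 2 counts in MSA_ConA 1 and 2 in ConA 1. Fhl1, a protein of muscle fibres, measured 3.82, 30.1 and 191 CPM in MSA_ConA livers, 3.39, 21.2 and 14.4 CPM in ConA livers, and 8.27, 10.7 and 8.84 CPM in Control livers.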

How the data were processed

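The deposited table of raw counts per gene for 9 mouse liver libraries was used, with a deposited table of FPKM, which divides each library's counts by gene length and a library-wide factor. Per the labels' protocols, RNA was taken with Trizol and built into Illumina libraries. The submitters' processing notes list Bowtie 0.12.2 and, as builds, mm10 and mm8, without their roles. Gene identifiers are those of the C57BL/6NJ assembly, and no source used here states how strand was handled or which tool counted the reads. MSA_ConA was taken as the group of columns headed M, from its initial.

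Counts were tested in edgeR 4.0.16 (R 4.3.3) by quasi-likelihood, with TMM factors (0.571 to 1.26), the default expression filter by group, a joint model of 9 libraries that leaves 6 residual degrees of freedom, and Benjamini-Hochberg adjustment. SE is the log2 difference divided by the root of the F statistic. Same-numbered libraries correlated at 0.337 to 0.720 in their deviations from group means, over the bound of 0.1 for taking numbers as pairs. Libraries numbered 2 correlated with those numbered 3 as strongly (0.332 to 0.706), and number 1 correlated at -0.691 to -0.394 with both. In these values number 1 stood apart, and numbers 2 and 3 did not separate as pairs. The deviations within a group cancel out for each gene, so the positive and negative correlations depend on each other and are not separate support. Within each group, every pair of libraries differed by more than counting noise. Intervals of single ratios are exact conditional binomial ones and cover counting error only. Alternatives were library totals, DESeq2 1.42.0, limma-voom (limma 3.58.1), no filter, only the groups compared, the number as a replicate block, limma on log2(FPKM + 1), numbers 2 and 3 alone, and leaving out each library. Fits were tested on simulated counts. The members and the 20 gene lists were chosen with earlier results of these data known. Of their 291 entries, 284 are in the table. Genes were named from among the members, the 3 most abundant of each list, any called in ConA against Control or MSA_ConA against ConA, which added none, Xist and Nnt, and the 5 most alike to Timp1, Col1a1 and Des by log2 CPM with 0.5 counts added. Not every gene that this rule names is reported here.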

Additional observations from a re-analysis of the deposited data

Results flagged for a closer look

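The ConA minus Control difference in the libraries numbered 1 was called as unequal to that in numbers 2 and 3 for 4 of the 9 genes, by edgeR's test of the difference itself, as it was for 31.1% of all genes. Each number 1 group is 1 library, and the spread behind the test comes only from numbers 2 and 3. The ConA minus Control difference was greater in number 1 by 3.51 (log2) for Col4a1 and by 2.11 for Tgfb1, and smaller by -5.42 for Acta2 and -2.42 for Lrat. The Tgfb1 call was lost with library totals (adjusted p 0.0536 by edgeR) and the Acta2 call under limma-voom (adjusted p 0.0727). For Acta2, number 1 moved down and numbers 2 and 3 up, at ratios of 0.199, 2.71 and 13.8 for numbers 1, 2 and 3. The MSA_ConA minus ConA difference of Tgfb1 was lower in number 1 by -2.70 (log2), in a test that called 18.7% of all genes. The number, the sex and strain transcripts that go with it, and the single mouse cannot be told apart.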

How the results depend on the processing

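Of the group comparisons, 0 of the 9 tested genes were called under every alternative that was run. DESeq2 called 6 genes in ConA against Control and 55 in MSA_ConA against Control, where the main test called 0. Scored by sign, where a change of an uncalled value by less than its SE was not taken as a reversal, Acta2 in ConA against Control became 1.11 (limma-voom) and 3.09 (numbers 2 and 3), and -1.36 to 2.95 on leaving out a library. In MSA_ConA against Control it became 0.25, 1.81 and -1.98 to 2.02 in the same order. Tgfb1 in ConA against Control became -0.32 in numbers 2 and 3, and -0.20 to 0.97 on leaving out a library. With numbers 2 and 3, MSA_ConA minus ConA became 0.12 for Col4a1, 0.0051 for Pdgfrb and 0.23 for Tgfb1. Leaving out a library gave, for MSA_ConA minus ConA, -1.02 to 0.82 for Col1a1, -0.85 to 0.56 for Col1a2, -1.002 to 0.94 for Col3a1, -2.29 to 1.24 for Col4a1 and -0.085 to 3.603 for Des. For MSA_ConA minus Control it gave -1.09 to 0.91 for Col1a1, -0.41 to 1.02 for Col1a2 and -0.91 to 1.05 for Col3a1. The cause of these changes was not tested.

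Library totals in place of TMM lowered the median of all genes by 0.71 between number 1 and numbers 2 and 3, where Tgfb1 became -0.37. The unequal ConA effect of Pdgfrb became -0.34 under it. For the unequal ConA effect, the values without the filter were 7.44 for Timp1 and -3.82 for Des (log2). Without the filter the number of members called changed, as did the number of all genes called and tested. For the unequal MSA_ConA minus ConA effect, 2 of the 9 were called with library totals and 4 of 10 without the filter, against 1, and limma-voom called 1623 genes against 2724. With the number entered as a replicate block, 0 genes and 0 of the 9 were called in each group comparison, and the ConA minus Control difference of Col4a1 was 1.45. The block changed no call. Leaving out libraries was not run for the unequal effects. Alternatives for the unequal MSA_ConA minus ConA effect, and for counts of all genes by number, were chosen after seeing the data. Depth limits Timp1, at 1 to 6 counts in 7 of 9 libraries.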
